A study of Homo sapiens with 4 samples.

Results

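Histone genes were followed by RNA-seq in the LNCaP line of human prostate cancer cells, which are luminal in type and carry the androgen receptor. Members were the genes typed as protein coding whose symbol starts with HIST1H, HIST2H, HIST3H, HIST4H or H2AF, or is H3F3A, H3F3B, H1F0 or H1FX. The rule uses names and no measured value, and it found 67 of the 17902 genes listed, all of them among the 13018 listed as protein coding. They fell into 57 clustered genes (the HIST symbols) and 10 replacement genes. The libraries were 2 of ETV5_OE cells, whose genotype is given as overexpression of the ETS-family transcription factor ETV5, and 2 of Control cells, whose genotype is given as WT. The labels name no vector, clone or selection for either group, and not what separates the replicates. The ETV5_OE libraries have names built on one stem, while the Control library names carry different numbers. The pairs may thus be unlike kinds of replicate, which the labels do not settle. The names of Control replicate 1 and ETV5_OE replicate 2 also carry a letter R, whose meaning the labels do not give. The spread behind the p-values is that between 2 libraries per group and could be technical, in ETV5_OE above all. Histone genes outside the 67, such as HIST1H1A or H3F3C, were not analysed here.

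Histones package DNA. H2A, H2B, H3 and H4 form the nucleosome core, and H1 binds the linker DNA between cores. Most of the supply comes from replication-dependent genes in clusters, which are transcribed in S phase under NPAT and whose mRNAs end in a conserved stem-loop bound by SLBP rather than in a poly(A) tail. Replacement genes lie outside the large clusters, usually carry introns, give polyadenylated mRNAs and are made throughout the cell cycle. H2AFX is a known mixed case, with one stem-loop form and one polyadenylated form of its mRNA.

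The stem-loops are shown because they are the feature that sets the classes apart at the mRNA level. GENCODE release 29 protein-coding transcripts (GRCh38) were searched on the sense strand for the shape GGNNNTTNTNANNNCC with fully complementary arms of 6 bases around a loop of 4. A match was found in 28 of 57 clustered genes and in 1 of 10 replacement genes, against 60 of 19702 protein-coding genes (0.3045%). Those 60 include the members with a match. The loop letters of the shape were set after the first matches had been read, so these shares describe the members and are no test. For 24 of the clustered genes without a match the transcripts stop at the coding sequence, so the place where the stem-loop would lie was not searched. The commonest form, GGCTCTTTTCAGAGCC, was found in 16 members. The sites below are those of H2AFX, of the 3 clustered genes whose levels differed least between the Control libraries (HIST4H4, HIST1H3E, HIST3H2A), and of abundant genes that differed more. Capitals mark the stem-loop, the coordinates are those of the capitals, and each sequence reads 5′ to 3′ along the mRNA.
H2AFX (chr11:119094898-119094913, minus strand): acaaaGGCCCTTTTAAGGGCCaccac
HIST4H4 (chr12:14770724-14770739, minus strand): caaaaGGCCCTTTTCAGGGCCcccaa
HIST1H3E (chr6:26225596-26225611, plus strand): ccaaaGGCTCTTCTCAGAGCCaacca
HIST3H2A (chr1:228457369-228457384, minus strand): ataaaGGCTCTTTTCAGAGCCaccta
HIST2H3C (chr1:149840692-149840707, minus strand): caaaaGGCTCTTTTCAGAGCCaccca
HIST1H2BC (chr6:26123472-26123487, minus strand): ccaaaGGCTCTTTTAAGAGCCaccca
HIST2H4A (chr1:149833032-149833047, plus strand): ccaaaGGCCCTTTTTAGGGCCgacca
The stem-loop letters were thus found in HIST4H4, HIST1H3E and HIST3H2A as in the 3 abundant genes shown, whose Control ratios were wider. HIST1H1T, HIST1H3J and HIST1H1B, with wider ratios still, had no match in the transcripts searched. For HIST1H3J and HIST1H1B those transcripts stop at the coding sequence, so whether they have the stem-loop was not tested. The match in H2AFX was the only one among the replacement genes searched. The matches shown do not lie at the ends of the transcripts searched. They lie 1862 bases before the end in HIST1H3E, 1154 in HIST2H3C, 1044 in H2AFX and 390 in HIST3H2A. In HIST2H4A, HIST4H4 and HIST1H2BC they lie 194, 169 and 116 bases before it. Where the mRNAs end in these cells was not tested.

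Promoter windows of 250 bases before to 50 after the start were taken from RefSeq (GRCh38.p14), for the 61 members that matched by gene (52 clustered, 9 replacement). The TATA letters TATAAA, on either strand, were in 36 of 52 clustered and 4 of 9 replacement genes, against 11.5% of 35116 promoters. The CCAAT letters were in 43 of 52 clustered and 7 of 9 replacement genes, against 34.6% of all promoters. Within the clustered class CCAAT was in all H1, H2A, H2B and H3 windows matched but in 1 of 10 H4 windows. The octamer ATTTGCAT, a binding site of OCT1 known from H2B promoters, was in 10 of 14 H2B and 10 of 15 H2A genes, against 1.77% of all promoters. Many H2A and H2B genes stand head to head and share most of their window, so the same letters can count for both families. AAACACA, the H1 box, was in 4 of 4 clustered H1 genes, against 5.64% of all promoters. CCGGAAG, the core of sites bound by ETS factors such as ETV5, was in 5 of 52 clustered and 1 of 9 replacement genes, against 10.3% of all promoters. A member gene counts if any of its windows matches, whereas the percentages over all promoters count single windows. A match here describes letters in a window and no more. The windows below show 1 gene each with the H1 box, with the octamer, with neither, and with TATA and CCAAT in a replacement gene. Capitals mark the motifs just named, on either strand, and neighbouring matches may overlap.
HIST1H1B (chr6:27867539-27867838, minus strand): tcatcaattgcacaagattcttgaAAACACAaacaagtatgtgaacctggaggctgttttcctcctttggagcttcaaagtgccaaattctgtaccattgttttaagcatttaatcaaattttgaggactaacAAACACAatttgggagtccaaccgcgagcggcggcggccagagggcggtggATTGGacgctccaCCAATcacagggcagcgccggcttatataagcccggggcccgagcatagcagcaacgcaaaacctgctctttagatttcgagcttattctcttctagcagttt
HIST1H2BJ (chr6:27132746-27133045, minus strand): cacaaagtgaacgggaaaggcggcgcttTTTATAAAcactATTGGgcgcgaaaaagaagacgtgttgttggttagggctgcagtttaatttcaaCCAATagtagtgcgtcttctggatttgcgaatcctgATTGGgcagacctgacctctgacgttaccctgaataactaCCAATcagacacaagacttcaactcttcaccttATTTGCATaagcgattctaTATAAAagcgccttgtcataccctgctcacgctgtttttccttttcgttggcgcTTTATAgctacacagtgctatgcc
HIST4H4 (chr12:14771082-14771381, minus strand): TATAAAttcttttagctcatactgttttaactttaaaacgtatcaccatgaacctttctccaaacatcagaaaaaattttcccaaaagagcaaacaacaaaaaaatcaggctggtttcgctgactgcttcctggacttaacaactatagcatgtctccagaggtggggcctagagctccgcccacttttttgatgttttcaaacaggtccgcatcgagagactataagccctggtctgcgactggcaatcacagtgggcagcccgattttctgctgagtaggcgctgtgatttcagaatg
H2AFX (chr11:119095416-119095715, minus strand): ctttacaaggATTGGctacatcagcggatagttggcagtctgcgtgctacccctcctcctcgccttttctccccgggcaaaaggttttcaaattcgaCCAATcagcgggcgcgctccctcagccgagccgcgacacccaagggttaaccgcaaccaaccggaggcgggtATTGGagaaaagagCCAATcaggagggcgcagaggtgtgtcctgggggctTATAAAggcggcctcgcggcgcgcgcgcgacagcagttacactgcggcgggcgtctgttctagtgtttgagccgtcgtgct
H2AFX thus has TATA and CCAAT letters like many clustered genes. Of the letters searched, the HIST4H4 window has TATAAA only, far upstream of the start. Only exact letters were searched, so near forms of TATAAA closer to a start were not counted.

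Total counts were between 20639543 and 30227070 per library. ETV5 itself stood at 23.9 and 21.8 CPM (counts scaled to library size) in ETV5_OE libraries and at 0.718 and 1.29 CPM in Control libraries, a log2 fold change of 4.54 (SE 0.32, edgeR adjusted p = 0.00151). All 10 luminal prostate markers were listed, with summed levels of 5384 and 5950 CPM in ETV5_OE and 7586 and 8038 CPM in Control libraries. Of 8 stroma markers 5 were listed, summing to 87.9 and 13.6 CPM in ETV5_OE and 14.8 and 14.1 CPM in Control libraries. The largest single part of the first sum was COL1A2, at 41.4 and 0.0835 CPM in ETV5_OE and 0.326 and 1.72 CPM in Control libraries. Of 4 endothelium markers 1 was listed, VWF, and the 5 leukocyte markers were not analysed here. The labels call the assay mRNA sequencing and do not say how transcripts without a poly(A) tail were treated. Such RNAs were present, with RN7SL1, the RNA of the signal recognition particle, at 48693 and 54336 CPM in ETV5_OE and 44948 and 47953 CPM in Control libraries.

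The clustered genes were low in one Control library and nearer to each other in the other 3 libraries. The replacement genes differed little among all 4. Clustered counts summed to 155325 and 135079 in ETV5_OE replicates 1 and 2 and to 219748 and 53341 in Control replicates 1 and 2. That is 0.694% and 0.548% of all counts in ETV5_OE libraries (95% Wilson intervals 0.691 to 0.698% and 0.545 to 0.551%). In Control libraries it is 0.727% and 0.258% (0.724 to 0.730% and 0.256 to 0.261%). These intervals cover counting error only. Replacement counts took 0.188% and 0.184% in ETV5_OE and 0.209% and 0.182% in Control libraries. The clustered share of Control replicate 2 lay below the other 3 by far more than counting error. Its replacement share lay beside that of ETV5_OE replicate 2. The clustered intervals of the other 3 libraries did not overlap either, though these shares lay nearer to each other. In bulk RNA, fewer cells making histone mRNA and less histone mRNA per cell cannot be told apart.

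The ratio of summed clustered to summed replacement counts within a library needs no scaling between libraries. It was 3.70 and 2.98 in ETV5_OE and 3.48 and 1.42 in Control libraries. The mean log2 ratio was 1.73 ± 0.22 in ETV5_OE and 1.15 ± 0.92 in Control (SD, n = 2 each), a difference of 0.58 that is smaller than the Control SD. On the length-scaled FPKM values (the authors' fragment values scaled by gene length and depth) the ratio was 11.7 and 9.97 in ETV5_OE and 11.5 and 4.95 in Control libraries. The order of the libraries was thus the same with and without scaling by length.

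**Figure D1:**
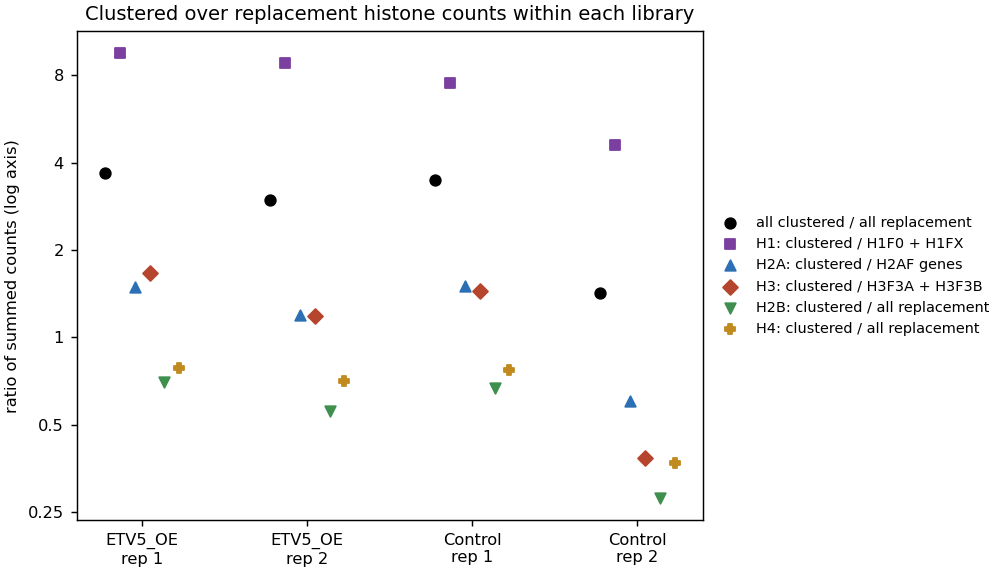
Ratio of summed clustered to summed replacement counts in each library (log axis), for all members and by histone family. Control replicate 2 is lowest for every ratio drawn, with 1.42 for all members against 3.70, 2.98 and 3.48 in ETV5_OE replicates 1 and 2 and Control replicate 1.

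Each family showed the low library, to different degrees. For H3 the clustered genes over H3F3A and H3F3B gave 1.66 and 1.18 in ETV5_OE and 1.44 and 0.383 in Control libraries, a 3.76-fold gap within Control. For H2A the clustered genes over the H2AF genes gave 1.49 and 1.19 in ETV5_OE and 1.51 and 0.604 in Control libraries, a 2.49-fold gap. For linker histone H1 the clustered genes over H1F0 and H1FX gave 9.50 and 8.83 in ETV5_OE and 7.50 and 4.60 in Control libraries, a 1.63-fold gap. H2B and H4 have no replacement gene among the members, so all 10 were used below the line. H2B then gave 0.702 and 0.559 in ETV5_OE and 0.667 and 0.280 in Control libraries, and H4 gave 0.787 and 0.707 in ETV5_OE and 0.775 and 0.370 in Control libraries. On the log2 scale the gap within Control was wider than the difference between the group means in each family. For H1 this held only narrowly, with a log2 difference of 0.64, and both ETV5_OE ratios lay above both Control ratios. In the other families the groups overlapped. The family order was not tested.

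No histone gene passed the test between the groups. With edgeR's quasi-likelihood test, 0 of 67 members reached an adjusted p under 0.05, where 0.401% of the 16194 genes tested did. All 67 members had passed the count filter. At an unadjusted p under 0.05, 1 member was higher (HIST4H4), against 3.63% of genes tested, and 0 were lower, against 3.51%. DESeq2, limma on FPKM and the other scalings also called 0 members. The smallest adjusted p of a clustered gene with DESeq2 was 0.052, just over the threshold. The median log2 fold change of ETV5_OE over Control was 0.37 for the clustered genes (range -0.21 to 0.75, 55 of 57 above 0). For the replacement genes it was 0.01 (range -0.24 to 0.74, 5 of 10 above 0), and over all genes tested 0.00. Both ETV5_OE libraries lay above both Control libraries for 1 clustered and 2 replacement genes, against 18.8% of genes tested. They lay below for 0 clustered and 1 replacement gene, also against 18.8%. For the other clustered genes the 2 groups overlapped.

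**Figure D2:**
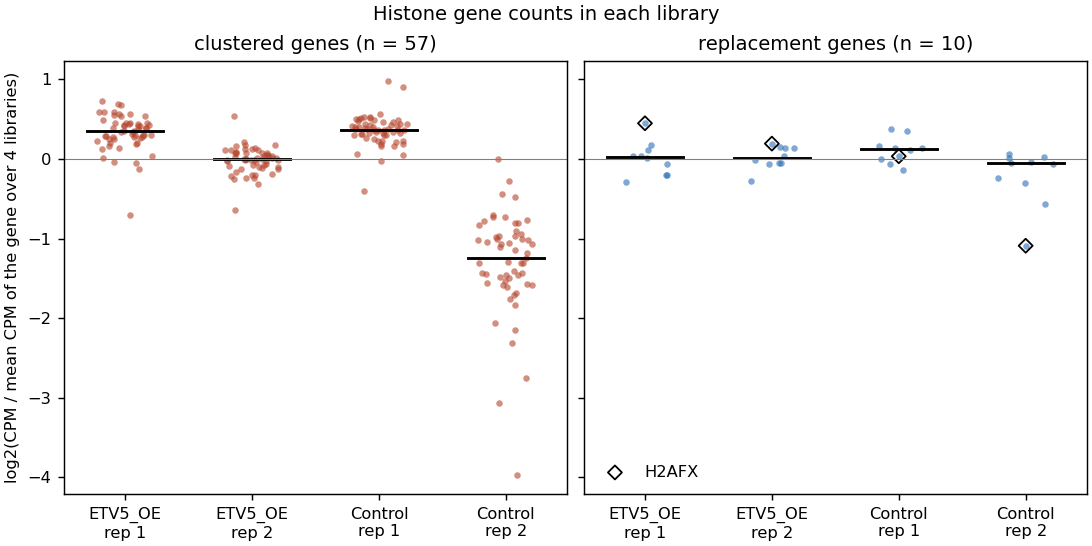
Each member's CPM in each library relative to its mean over the 4 libraries (log2), clustered genes left and replacement genes right; bars are medians and the diamond is H2AFX. Of 57 clustered genes 56 are lowest in Control replicate 2, against 3 of 10 replacement genes.

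The direction of the clustered class was set by which Control library was kept. With Control replicate 1 left out, the median log2 fold change of the clustered genes became 1.43 and 38 of 57 were called higher, with H2AFX as the single replacement gene called. In that fit 1.16% of genes tested were called higher. With Control replicate 2 left out, the median became -0.19, with 9 of 57 above 0 and none called. Leaving out ETV5_OE replicate 1 or 2 gave medians of 0.19 and 0.55 and no member called. With 1 Control library the spread comes from the ETV5_OE pair alone and could be technical. The lone library is assumed to vary in the same way. Which of the 2 Control libraries is the more typical of Control cells cannot be told.

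**Figure D3:**
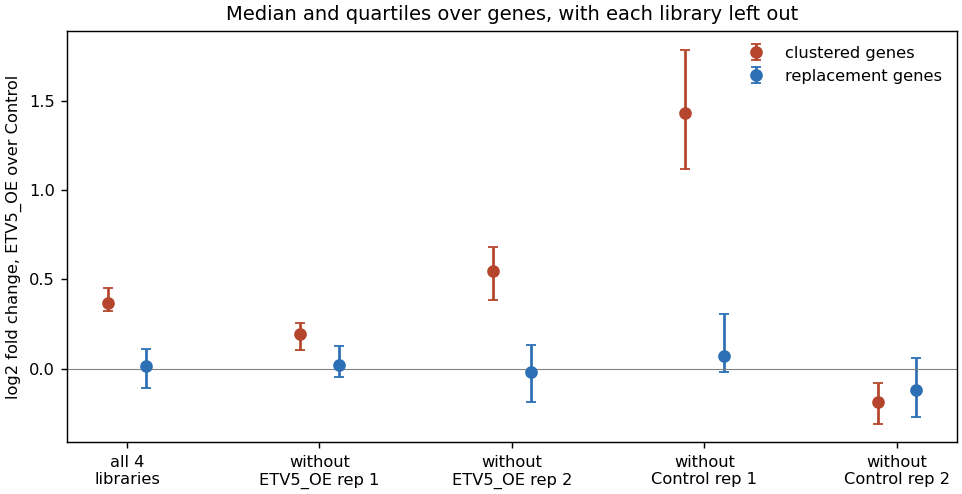
Median log2 fold change of ETV5_OE over Control with all libraries and with each library left out, where bars span the quartiles over genes. The clustered median runs from -0.19 without Control replicate 2 to 1.43 without Control replicate 1, and the replacement median from -0.12 to 0.07 over the same fits.

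Within the Control pair, all 57 clustered genes had more CPM in replicate 1 than in replicate 2, and 50 of them at least 2-fold more, against 5.65% of the genes tested. Of the replacement genes 7 of 10 had more CPM in Control replicate 1, and 1 (H2AFX) at least 2-fold more. The median log2 ratio of the Control libraries was 1.62 for clustered genes (range 0.04 to 4.87), 0.17 for replacement genes (range -0.08 to 1.12) and -0.01 over all genes tested. Within the ETV5_OE pair the clustered median was 0.37, with 51 of 57 genes above in replicate 1. No member was 2-fold or more above in ETV5_OE replicate 1, against 3.82% of genes tested. HIST1H1T, with 1.84 CPM in replicate 1 and 4.34 CPM in replicate 2, was more than 2-fold apart the other way. The ETV5_OE pair thus differed in the same class by a smaller amount, though the pairs may be unlike kinds of replicate. By gene cluster, 38 of 42 HIST1 genes, 11 of 12 HIST2 genes, 1 of 2 HIST3 genes and 0 of 1 HIST4 gene were at least 2-fold apart in the Control pair.

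**Figure D4:**
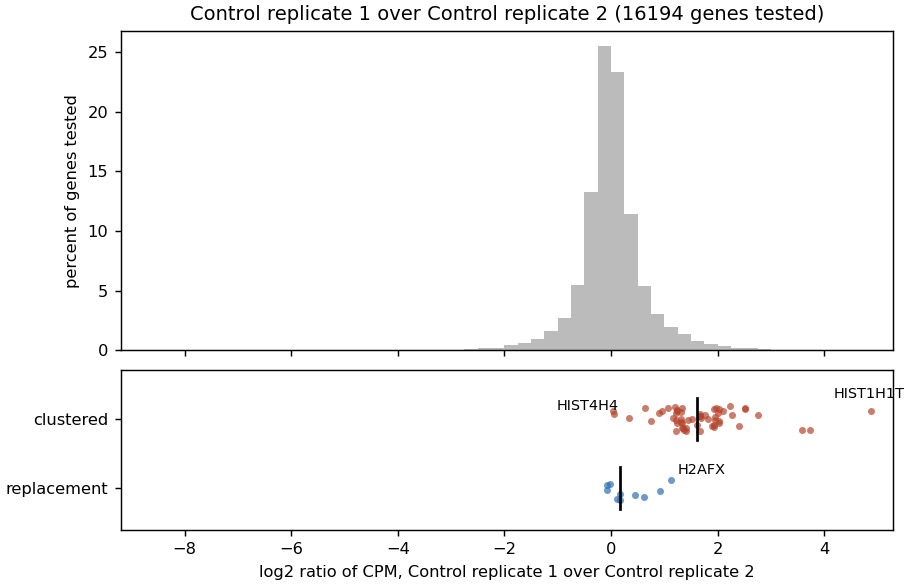
Log2 ratio of CPM of Control replicate 1 over Control replicate 2, for all genes tested (top, percent of genes per bin of 0.25) and for the members (bottom, vertical bars are medians). The clustered genes lie at a median of 1.62 and the replacement genes at 0.17, with HIST4H4 at 0.04, H2AFX at 1.12 and HIST1H1T at 4.87.

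Among linker histones, HIST1H1C (gene ID 3006, now H1-2) had the highest mean level per length of all members, 602 FPKM. Its counts gave 531 and 498 CPM in ETV5_OE and 601 and 221 CPM in Control libraries. HIST1H1E, which encodes another of the common linker histones, had 498 and 421 CPM in ETV5_OE and 485 and 249 CPM in Control libraries. In both genes 3 libraries were close and Control replicate 2 stood alone, and the groups overlapped. HIST1H1B, which was picked with its values known, had 439.9 and 225 CPM in ETV5_OE and 342 and 59.8 CPM in Control libraries. It was the linker gene with the widest gap in the ETV5_OE pair among these 3, and without Control replicate 1 its log2 fold change of 2.47 was not called (adjusted p = 0.458; 0.959 with all libraries). HIST1H1T encodes the testis linker histone and is known for expression in spermatocytes. Its counts were low, 41 and 104 reads in ETV5_OE and 171 and 4 reads in Control libraries, or 1.84 and 4.34 CPM in ETV5_OE and 5.58 and 0.191 CPM in Control libraries. It had the widest Control ratio of any member, 29.2-fold, which rests on the 4 reads of 1 library.

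For the core histones H2A and H2B the abundant genes had like profiles across the libraries. HIST2H2AA3 had 198 and 166 CPM in ETV5_OE and 201 and 79.2 CPM in Control libraries, and its near-identical copy HIST2H2AA4 had 208 and 178 CPM in ETV5_OE and 216 and 85.4 CPM in Control libraries. HIST1H2BC had 175 and 158 CPM in ETV5_OE and 188 and 76.1 CPM in Control libraries. HIST2H2BF had 201 and 157 CPM in ETV5_OE and 209 and 64.4 CPM in Control libraries. In these 4 genes Control replicate 1 lay beside the ETV5_OE libraries and Control replicate 2 below them. The exception in H2A was HIST3H2A, at 15.8 and 12.5 CPM in ETV5_OE and 14.0 and 11.0 CPM in Control libraries, a Control ratio of 1.27-fold. All 14 H2B genes were at least 2-fold apart in the Control pair, between 2.25-fold and 6.73-fold.

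HIST1H3B, an abundant gene of canonical H3, had 239 and 194 CPM in ETV5_OE and 277 and 58.8 CPM in Control libraries. HIST2H3C had 199 and 175 CPM in ETV5_OE and 219 and 54.1 CPM in Control libraries. HIST1H3J was low, with 4.75 and 2.46 CPM in ETV5_OE and 7.60 and 0.573 CPM in Control libraries, a 13.3-fold Control ratio on 233 and 12 reads. In these 3 genes Control replicate 2 was lowest and Control replicate 1 highest. HIST1H3E did not share the pattern, with 4.80 and 5.51 CPM in ETV5_OE and 5.45 and 5.25 CPM in Control libraries, and was the 1 clustered gene not lowest in Control replicate 2. HIST2H3PS2 had 8.11 and 4.30 CPM in ETV5_OE and 4.99 and 2.96 CPM in Control libraries, with a log2 fold change of 0.63 (SE 0.42, adjusted p = 0.853).

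The H4 genes held the 1 clustered gene whose groups did not overlap. HIST2H4A and HIST2H4B, which are near-identical copies, had 6405 and 6407 reads in ETV5_OE replicate 1 and 1861 and 1860 in Control replicate 2, so how their shared reads were assigned cannot be seen from their values. HIST2H4A stood at 287 and 220.2 CPM in ETV5_OE and 283 and 88.8 CPM in Control libraries. HIST1H4E stood at 136 and 130.04 CPM in ETV5_OE and 138 and 88.6 CPM in Control libraries, a narrower Control gap of 1.56-fold. HIST4H4 (gene ID 121504, now H4C16, on chromosome 12 away from the large clusters) had 34.7 and 29.8 CPM in ETV5_OE and 19.3 and 18.8 CPM in Control libraries. Its means were 32.2 ± 3.48 CPM in ETV5_OE and 19.1 ± 0.347 CPM in Control (SD, n = 2 each). Its log2 fold change of 0.75 (SE 0.18) had the smallest p of the 67 members and did not pass over all genes (adjusted p = 0.232).

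**Figure D5:**
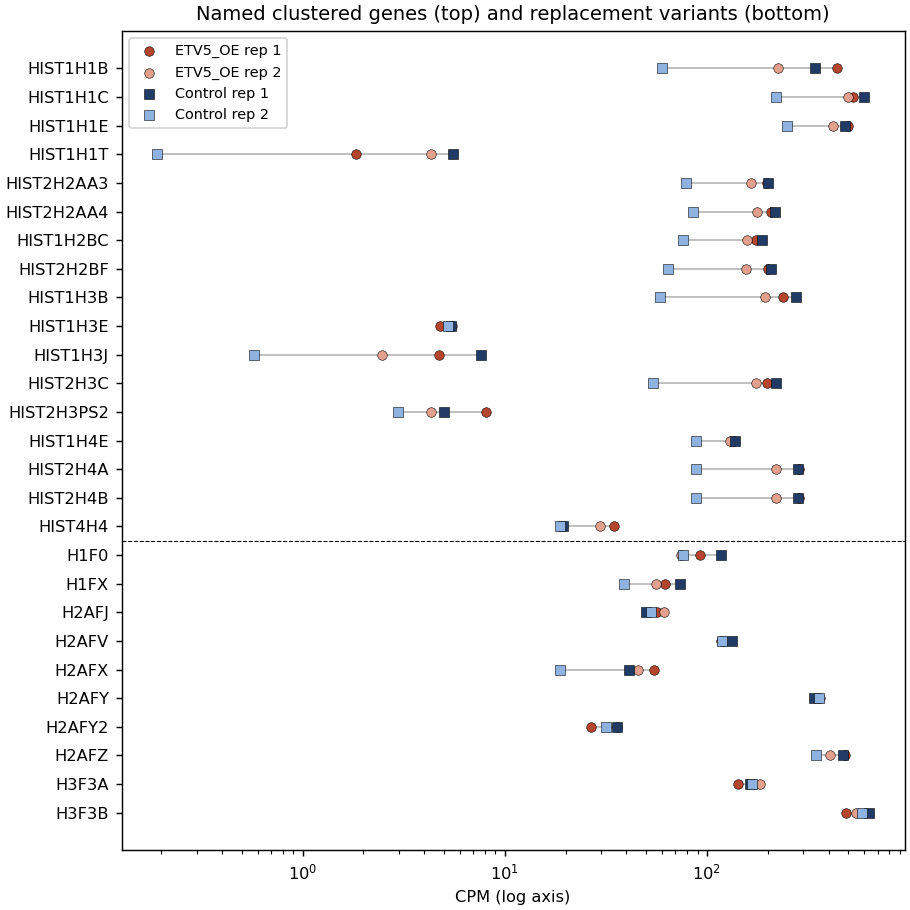
CPM of the named clustered genes (above the dashed line) and of the 10 replacement genes (below it) in each library, on a log axis. Most clustered genes show Control replicate 2 apart on the left, as in HIST1H3B at 58.8 CPM against 239, 194 and 277 CPM in ETV5_OE replicates 1 and 2 and Control replicate 1, while HIST4H4 and HIST1H3E do not.

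The replacement genes were steadier. H3F3A and H3F3B both encode H3.3, the H3 variant placed outside replication. H3F3A had 143 and 183 CPM in ETV5_OE and 164 and 166 CPM in Control libraries. H3F3B had 491 and 546 CPM in ETV5_OE and 634 and 588 CPM in Control libraries, below both Control libraries but not past the test (log2 fold change -0.24, SE 0.14, adjusted p = 0.814). Pseudogenes of H3F3A were also listed, and reads shared with them are uncertain.

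H2AFZ and H2AFV encode the H2A.Z proteins, found at promoters. H2AFZ had 482 and 406 CPM in ETV5_OE and 469.9 and 346 CPM in Control libraries, and H2AFV had 117 and 122 CPM in ETV5_OE and 133 and 119 CPM in Control libraries. H2AFY and H2AFY2 encode the macroH2A proteins, which carry a large extra domain. H2AFY had 358 and 363 CPM in ETV5_OE and 340.2 and 358 CPM in Control libraries, and H2AFY2 had 26.6 and 36.0 CPM in ETV5_OE and 36.0 and 31.9 CPM in Control libraries. The groups overlapped in all 4 genes. H2AFJ, another H2A variant gene, had 56.9 and 61.1 CPM in ETV5_OE and 50.2 and 53.1 CPM in Control libraries, which did not overlap (log2 fold change 0.19, SE 0.14, adjusted p = 0.873).

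H2AFX (gene ID 3014, now H2AX) encodes the variant that is phosphorylated at DNA breaks. Its level was 54.8 and 45.9 CPM in ETV5_OE and 41.1 and 18.8 CPM in Control libraries, so the groups did not overlap and Control replicate 2 was again lowest. The log2 fold change was 0.74 (SE 0.40, adjusted p = 0.811), and 1.42 without Control replicate 1 (adjusted p = 0.0127, in a range of 0.0127 to 0.999 over its alternatives). It was the replacement gene with the widest Control ratio, 2.18-fold, and the one with a stem-loop. Among linker variants, H1FX had 62.0 and 55.8 CPM in ETV5_OE and 73.6 and 39.0 CPM in Control libraries, and H1F0, known from differentiated cells, had 92.8 and 74.2 CPM in ETV5_OE and 117 and 76.2 CPM in Control libraries. The Control ratios of these linker variants were 1.89-fold and 1.54-fold, next below that of H2AFX. Without H2AFX the median log2 fold change of ETV5_OE over Control for the replacement genes was -0.02.

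Some clustered genes also give polyadenylated mRNA in cells that have left the cycle, and a list of 8 of them was taken from the literature as recalled: HIST1H1C, HIST1H2AC, HIST1H2BC, HIST1H2BD, HIST1H2BJ, HIST1H2BK, HIST2H2BE and HIST4H4. Their summed level was 1415 and 1260.5 CPM in ETV5_OE and 1549 and 610.2 CPM in Control libraries. The 8 genes were all lowest in Control replicate 2, and 7 of 8 were at least 2-fold apart in the Control pair, against 43 of the 49 other clustered genes. The median log2 Control ratio was 1.27 for the list and 1.67 for the other clustered genes. HIST1H2BJ had the widest gap of the list, with 86.0 and 54.4 CPM in ETV5_OE and 93.1 and 17.6 CPM in Control libraries. The ratio of the list to the replacement genes was 0.751 and 0.666 in ETV5_OE and 0.752 and 0.340 in Control libraries. The low library was thus present with and without these genes.

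Genes that make and process histone mRNA were near level in sum, though not gene by gene. Over 16 genes of histone mRNA supply the sums were 720.0 and 680.2 CPM in ETV5_OE and 711 and 685 CPM in Control libraries, with a median log2 fold change of 0.10. None was called, and 1 was lower at an unadjusted p under 0.05, CASP8AP2, which encodes FLASH, a partner of NPAT. CASP8AP2 had 22.9 and 23.8 CPM in ETV5_OE and 32.9 and 29.6 CPM in Control libraries (log2 fold change -0.42, SE 0.17, adjusted p = 0.663). NPAT itself had 52.4 and 50.8 CPM in ETV5_OE and 50.9 and 59.4 CPM in Control libraries. SLBP had 37.7 and 44.1 CPM in ETV5_OE and 33.8 and 43.1 CPM in Control libraries. Neither of these was low in Control replicate 2. Of the 16 genes 8 were lowest in Control replicate 2, against 27.3% of genes tested. Among them LSM11, of the complex that processes histone mRNA ends, had 13.6 and 14.7 CPM in ETV5_OE and 14.5 and 9.59 CPM in Control libraries, and CDK2 had 54.3 and 44.2 CPM in ETV5_OE and 49.2 and 32.1 CPM in Control libraries. CCNE2 and CDK2, of the cyclin E kinase that acts on NPAT, had log2 fold changes of 0.35 (SE 0.22) and 0.27 (SE 0.23).

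Histone chaperones were also near level in sum. The 10 replication-coupled chaperones summed to 678 and 620.3 CPM in ETV5_OE and 693 and 603 CPM in Control libraries, with a median log2 fold change of 0.01 and none called. CHAF1B, a subunit of the chaperone CAF-1, had 30.2 and 19.6 CPM in ETV5_OE and 18.2 and 17.1 CPM in Control libraries (log2 fold change 0.49, SE 0.24, adjusted p = 0.761). Gene by gene, 7 of the 10 were lowest in Control replicate 2, against 27.3% of genes tested, and 9 of 10 were higher in Control replicate 1 than in replicate 2. ASF1B, a chaperone of H3 and H4, had 20.8 and 17.99 CPM in ETV5_OE and 26.1 and 12.8 CPM in Control libraries, and CHAF1A, another CAF-1 subunit, had 27.9 and 23.9 CPM in ETV5_OE and 34.6 and 20.8 CPM in Control libraries. Both of these were picked with their values known. The 12 genes for deposition of replacement variants summed to 645 and 627 CPM in ETV5_OE and 680.3 and 617 CPM in Control libraries, with a median of 0.00, none called, and 2 of 12 lowest in Control replicate 2. DAXX, a chaperone of H3.3, had 55.4 and 53.6 CPM in ETV5_OE and 42.2 and 47.0 CPM in Control libraries (log2 fold change 0.29, SE 0.15, adjusted p = 0.782).

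Cell cycle lists were also low in Control replicate 2. The 26 S phase genes summed to 1966 and 1462 CPM in ETV5_OE and 1628 and 1057 CPM in Control libraries, with 24 of 26 higher in Control replicate 1 than in replicate 2. Their median log2 fold change was 0.39, and none was called. FEN1, MCM5 and PCNA, all of the replication fork, had the smallest p-values there, with log2 fold changes of 0.52 (SE 0.22), 0.40 (SE 0.19) and 0.46 (SE 0.22). The 16 genes of G2 and M summed to 1239 and 1289 CPM in ETV5_OE and 1661 and 588 CPM in Control libraries, with all 16 higher in Control replicate 1. By contrast 7 RNAs without a poly(A) tail, RN7SL1 among them, summed to 150594 and 173317 CPM in ETV5_OE and 144681 and 154980 CPM in Control libraries, and 2 of 7 were higher in Control replicate 1. The part of the cell cycle lists, or of transcripts without a poly(A) tail, in the histone result was not tested.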

How the data were processed

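Total RNA of 4 LNCaP libraries had been made into TruSeq libraries and read from both ends (NovaSeq), per the labels' protocols. The deposited table holds the authors' raw read counts per gene, their FPKM values per gene, and their own linear fold change and p-value for ETV5_OE against Control. Trimmomatic, HISAT2, StringTie and hg38 are named in the submitters' processing notes, without versions or roles, and how strand was treated in counting is not stated there. All genes in the table have 1 read or more in each of the 4 libraries.

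From the counts, edgeR 4.0.16 (R 4.3.3) was run on all genes: filterByExpr with a minimum count of 10, TMM scaling, a robust quasi-likelihood F test with group as the only term, and Benjamini-Hochberg adjustment over 16194 genes, of which 65 were called. CPM values use TMM-scaled totals. An SE is the log2 fold change divided by the square root of F. Alternatives were DESeq2 1.42.0, RLE and total-count scaling, no filter, limma 3.58.1 on log2(FPKM + 1) and log2(FPKM + 0.1), the replicate number as a block, no structural RNAs, and each library left out. The fits were tested on simulated data.

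Members and lists were chosen with earlier results of these data known, so no list has a p-value. Named are all replacement genes, the 2 most abundant clustered genes per family by summed count, up to 3 clustered genes with the smallest p in each direction (2 lay below 0), the clustered gene with the widest Control ratio, and up to 3 genes with the smallest p in each supply, chaperone and S phase list; others were chosen after their values were seen. Of the clustered members 17 share at least one 100-base window with another and 9 share the larger part of their windows, so counts of HIST2H4A and HIST2H4B, HIST2H3A and HIST2H3C, HIST2H2AA3 and HIST2H2AA4, HIST1H4J and HIST1H4K, and HIST1H2AI and HIST1H2AJ are uncertain. HIST1H3D and HIST1H2AD, HIST1H2BK and HIST1H4I, and HIST2H4B with HIST2H2AA4 and HIST2H3A overlap in RefSeq. The loop letters of the stem-loop search were set after the first matches had been read.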

Additional observations from a re-analysis of the deposited data

How the results depend on the processing

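The count of 0 members called was the same under every setting except without Control replicate 1, where 39 were called, so the counts over left-out libraries run from 0 to 39. Over the same fits the clustered median (0.37) ran from -0.19 to 1.43, the replacement median (0.01) from -0.12 to 0.07, and the difference in log2 ratio (0.58) from -0.07 to 1.23; the cause was not tested. The other settings kept the clustered median between 0.32 and 0.60. With summed FPKM the difference in log2 ratio was 0.52, and with 1 gene of each near-identical pair left out, chosen after seeing the data, 0.57. With the replicate block the clustered median was 0.60 and 0 members were called. The deviations of same-numbered libraries had a correlation of 0.02 over 16194 genes. Over all genes this gave no sign of pairing by number, but with 2 libraries per group it cannot exclude pairing. Most clustered genes were higher in replicate 1 in both groups. Over all genes 65 were called, 223 with DESeq2 and 55 with the replicate block, and without one library 4 to 259.

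Of the named genes, 27 values under an alternative had the opposite sign. HIST1H3J (-0.21) was at 0.38 with limma and a pseudocount of 1 on FPKM, at 0.62 with one of 0.1, and at 0.48 with the replicate block. Over left-out libraries the log2 fold changes ran from -1.08 to 2.64 for HIST1H3J, -0.85 to 3.98 for HIST1H1T, -0.36 to 1.88 for HIST1H3B, -0.23 to 1.79 for HIST2H3C, -0.16 to 1.51 for HIST2H4A and for HIST2H4B, -0.22 to 1.47 for HIST2H2BF, -0.22 to 1.22 for HIST1H1C, -0.15 to 1.20 for HIST2H2AA3, -0.17 to 1.17 for HIST2H2AA4, -0.18 to 1.13 for HIST1H2BC, -0.079 to 0.88 for HIST1H1E, -0.056 to 0.58 for HIST1H4E, -0.16 to 0.038 for HIST1H3E, -0.32 to 0.59 for H1FX, -0.083 to 0.36 for H2AFZ, -0.49 to 0.13 for H1F0, -0.21 to 0.14 for H3F3A, -0.36 to 0.078 for H2AFY2 and -0.15 to 0.0098 for H2AFV. Of the named genes 11 were called without Control replicate 1 only. Genes under 10 reads in a library, such as HIST1H1T, are limited by depth.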

Other observations

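Many clustered H2A and H2B genes stand head to head, so that 1 stretch of DNA is the promoter window of both. RefSeq starts gave 11 head-to-head pairs of members, 194 to 248 bases apart. All were of an H2A with an H2B gene but for HIST1H2BF with HIST1H3D, an H3 gene. The HIST1H3D start used there is also the start of HIST1H2AD, so the same stretch of DNA was counted with both genes. HIST1H3D has a further RefSeq window of its own, at chr6:26197237-26197536. HIST1H2AC and HIST1H2BC were alike within the Control pair, with log2 ratios of Control replicate 1 over replicate 2 of 1.31 and 1.31. HIST3H2BB and HIST3H2A differed most among the pairs, with log2 ratios of 1.62 and 0.34. HIST3H2BB had 18.1 and 12.4 CPM in ETV5_OE and 17.5 and 5.68 CPM in Control libraries, next to the 15.8 and 12.5 CPM in ETV5_OE and 14.0 and 11.0 CPM in Control libraries of HIST3H2A. The groups overlapped in both genes. Their windows share 271 bases, and that of HIST3H2BB is shown with CCAAT on either strand in capitals.
HIST3H2BB (chr1:228457853-228458152, plus strand): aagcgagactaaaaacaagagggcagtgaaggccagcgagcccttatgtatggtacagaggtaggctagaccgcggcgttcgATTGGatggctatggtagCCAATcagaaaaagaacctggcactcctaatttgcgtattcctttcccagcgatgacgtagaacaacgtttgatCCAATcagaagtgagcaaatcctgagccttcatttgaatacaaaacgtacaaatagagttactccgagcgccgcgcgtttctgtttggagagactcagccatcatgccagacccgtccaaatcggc

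HIST1H2BN has a second stem-loop match in a GENCODE transcript that runs on to chr6:27865778-27865793, which lies inside HIST1H2AL.

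The authors' deposited table gives a positive fold of ETV5_OE over Control for 56 of 57 clustered genes and an unadjusted p under 0.05 for 1 of 67 members, H3F3B, with a fold of -1.27 (p = 0.0319). In the authors' deposited table HIST4H4 has a fold of 1.62 (p = 0.132).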
